A study of Mus musculus with 56 samples.

Results

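A set of 8 genes that mark blood monocytes and their 2 main subsets was followed in mouse blood after an injection of 90Sr, a bone-seeking emitter of beta radiation. The rule names the genes and uses no threshold on a value, and the set was chosen with earlier results of these data known. Ccr2, Fn1 and F13a1 stand for classical monocytes, Cx3cr1, Nr4a1 and Treml4 for patrolling monocytes, and Csf1r and Lyz2 for both. They are 8 of the 30199 genes on the array and have 13 of its 39429 probes. All 8 passed the filters on detection and variation, with at least 1 probe each, as did 14580 genes in all.

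The arrays measured RNA of whole blood from 56 C57BL/6 mice, 1 array per mouse, so that replicates are separate animals. The mice were received at about 10 to 12 weeks of age and held for 14 days, and their sex was not given. Irradiated mice received 200 kBq of 90Sr by tail vein and control mice the vehicle saline. Blood was taken at day 4 (4 control and 4 irradiated mice) and at days 7, 9, 25 and 30 (6 control and 6 irradiated mice at each), with separate control mice at each day.

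Monocytes are made in the bone marrow and enter the blood as classical cells, which carry the chemokine receptor Ccr2 and move into inflamed tissue. Part of them turn into patrolling cells, which carry the fractalkine receptor Cx3cr1, crawl along the vessel wall and need the nuclear receptor Nr4a1. Both kinds carry Csf1r, the receptor of the growth factors Csf1 and Il34. None of the 8 genes belongs to monocytes alone: Lyz2 is also made by neutrophils, F13a1 by megakaryocytes and platelets, Cx3cr1 and Ccr2 by some natural killer and T cells, and Nr4a1 by activated lymphocytes.

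All values are log2 signals of a probe minus the median of that array's non-control spots, called the level here, so a difference of 1 is a 2-fold difference. A gene was called at a day when limma gave an unadjusted p under 0.001 and the change was at least 2-fold. Adjusted p-values are limma's, by Benjamini-Hochberg over all genes tested. Between 17809 and 24698 spots were well above background on control arrays, and between 14389 and 22524 on irradiated arrays. Precision is limited by how many arrays each group has.

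At day 4, 5 of the 8 genes were called lower in the irradiated mice, where 23.1% of all genes tested were called lower. Later, 4 were called lower on day 7 (16.1% of all genes), 5 on day 9 (17.9%), 4 on day 25 (26.5%) and 3 on day 30 (21.3%). No member was called higher at any of the 5 days, where 2.8%, 3.47%, 5.44%, 7.48% and 19.7% of all genes were called higher in the order of the days. The median change of the 8 genes was -1.66, -1.14, -1.23, -1.33 and -0.79, against 0.04, 0.07, -0.17, 0.11 and 0.01 for all genes tested. The filter on variation keeps probes that differ between arrays, those of different groups included. With the filter on detection only and the brightest probe of each gene the medians of the 8 were -1.0, -1.09, -1.12, -1.09 and -0.49. Every irradiated mouse lay below every control mouse for 5 members on day 4 (35.9% of all genes), 5 on day 7 (27.6%), 6 on day 9 (23.3%), 6 on day 25 (30.5%) and 1 on day 30 (16.9%). In blood taken whole, fewer cells of a type and less RNA per cell cannot be told apart.

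The counts differed with the value used to scale the arrays. The array median of the log2 signal differed by -0.66, -0.59, -0.94, -0.66 and -0.59 between irradiated and control mice, and the 75th percentile by -1.13, -0.94, -1.33, -1.15 and -0.78. With arrays scaled on the 75th percentile, the median change of all genes moved to 0.52, 0.41, 0.22, 0.60 and 0.20. The share of the called genes that were lower then moved from 89.2%, 82.3%, 76.7%, 78.0% and 51.9% to 31.9%, 24.7%, 32.7%, 21.3% and 39.6%. On that scale 5, 2, 2, 1 and 3 of the 8 monocyte genes were called lower. So were 1144, 678, 911, 1086 and 2325 of all genes tested (14579 at day 4 and 14580 at each later day). After quantile normalization the lower share was 62.2%, 49.4%, 64.2%, 43.4% and 52.7%, and 5, 2, 3, 0 and 3 monocyte genes were called. Of all genes tested, 1634, 913, 1432, 1474 and 2799 were then called lower. In the authors' processed values the lower share was 90.6%, 87.6%, 87.6%, 72.8% and 76.3%. With normexp background correction it was 99.9%, 99.9%, 99.8%, 99.7% and 90.2%. The share of genes called higher at day 30 therefore depends on the processing.

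**Figure D1:**
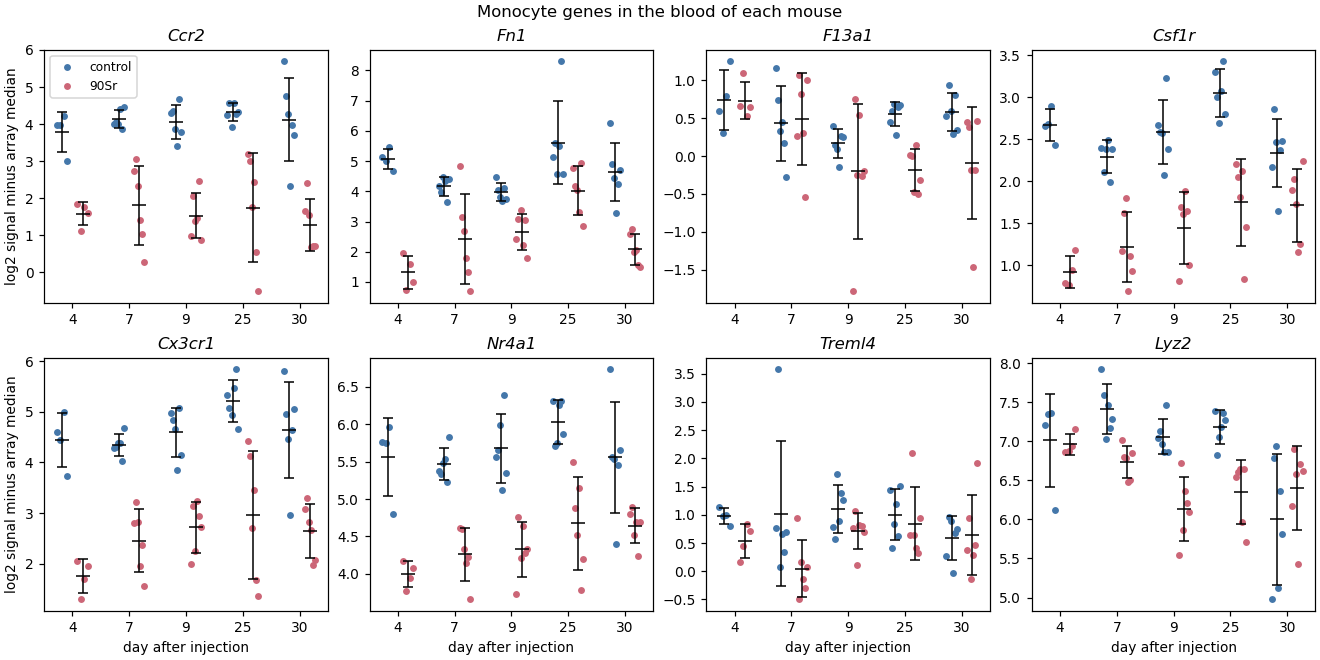
Level of each of the 8 genes in each mouse (vertical axis, log2 signal minus the array median) by day after injection (horizontal axis, equally spaced categories), with control mice in blue and 90Sr mice in red; the cross bars are the mean and the error bars 1 SD. At day 4 the 4 irradiated mice lie below the 4 control mice for Ccr2, Fn1, Csf1r, Cx3cr1 and Nr4a1, while the groups overlap for F13a1, Treml4 and Lyz2.

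Ccr2, the receptor through which classical monocytes leave the marrow and follow the chemokine Ccl2, was called lower at all 5 days. At day 4 its level was 3.98, 3.98, 4.23 and 3.01 in the control mice and 1.83, 1.13, 1.77 and 1.61 in the irradiated mice. The groups were separate, with the fourth control mouse nearest to the irradiated ones. The change was -2.21 ± 0.28 (SE, n = 4 and 4; adjusted p = 2.2e-04 from limma), a 4.64-fold lower signal.

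At day 7 Ccr2 ran from 3.88 through a median of 4.02 to 4.46 in the controls and from 0.29 through 1.87 to 3.06 after 90Sr. At day 9 the lowest, median and highest were 3.41, 4.08 and 4.67 against 0.87, 1.42 and 2.45. At day 25 they were 3.92, 4.31 and 4.58 against -0.51, 2.11 and 3.20. The groups were apart at each of these 3 days, although irradiated mice of 1 day differed among themselves by more than the controls did. At day 30 the values were 2.33, 4.13 and 5.69 against 0.69, 1.13 and 2.41, so that control replicate 4 lay within the irradiated range and 5 of the 6 irradiated mice were below all controls.

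The Ccr2 changes at days 7, 9, 25 and 30 were -2.32 ± 0.39, -2.53 ± 0.30, -2.58 ± 0.51 and -2.84 ± 0.46 (SE, n = 6 and 6). The folds were 4.99, 5.78, 5.98 and 7.14, with adjusted p from limma of 3.2e-04, 3.3e-05, 5.5e-04 and 1.4e-04. Its probe was well above background on every control array, on all 4 irradiated arrays at day 4 and on 4, 4, 4 and 3 of the 6 irradiated arrays at the later days, so that the later folds rest in part on signals near background. The fold was larger at each later day, but the F test for any difference in the effect between days detected none (limma, adjusted p = 0.938). That test passed an adjusted p of 0.05 for 22.5% of all genes. A fit with the slide as a block takes its change from the 1 slide of a day that holds 2 arrays of each group. With the slide as a block Ccr2 was called at day 9 but not at days 7, 25 and 30 (adjusted p = 0.0186, 0.286 and 0.134), and the day 25 change was -1.21. In the control mice the Ccr2 level did not differ detectably between days either (adjusted p = 0.896), while 48.2% of all genes did.

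Fn1 encodes fibronectin, a matrix glycoprotein that classical monocytes express and that integrins bind. It had the largest single change of the 8 genes, at day 4, when its level lay between 4.66 and 5.47 in the 4 controls, with a mean of 5.07 ± 0.34 (SD, n = 4). In the 4 irradiated mice it lay between 0.74 and 1.96, with a mean of 1.32 ± 0.55 (SD, n = 4). The change was -3.75 ± 0.28 (SE; adjusted p = 1.5e-04, limma), a 13.4-fold lower signal with no overlap.

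At days 7 and 25 Fn1 was not called. At day 7 the levels were 3.64, 4.27 and 4.46 (lowest, median, highest) in the controls and 0.69, 2.25 and 4.84 after 90Sr. Replicate 1 of the irradiated mice, at 4.84, stood above every control, and the other 5 stood below every control. The change was -1.76 ± 0.54 (SE; adjusted p = 0.0110), and without that mouse it was -2.24 and was called. At day 25 the levels were 4.58, 5.31 and 8.30 against 2.86, 4.12 and 4.92. The change there was -1.59 ± 0.55 (SE; adjusted p = 0.0172), and -1.05 without control replicate 5, the mouse at 8.30.

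Fn1 was called lower at day 9, at -1.32 ± 0.27 (SE; adjusted p = 0.00105), with levels of 3.68, 3.93 and 4.47 against 1.79, 2.73 and 3.38. It was called again at day 30, at -2.56 ± 0.39 (SE; adjusted p = 1.1e-04), with levels of 3.29, 4.59 and 6.26 against 1.49, 2.04 and 2.76. The groups were apart at both days, and Fn1 was the 1 member with separate groups at day 30. The difference between days in the effect on Fn1 had an adjusted p of 0.0664. Its level in the controls differed between days (adjusted p = 0.0214), with means from 3.98 at day 9 to 5.61 at day 25. The day 9 call was lost with the 75th percentile (-0.93) and after quantile normalization (-0.96). It was also lost in 1 fit of all 10 groups (limma, adjusted p = 0.0156) and with the slide as a block (0.0779). The day 30 call was lost with the slide (0.107) or scan day (0.0157) as a block.

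F13a1, the catalytic chain of the clotting factor that cross-links fibrin, was not called at any day. The probe that passed both filters was dim, with a mean level of 0.29, and was well above background on 20 of the 56 arrays. Its change was -0.00, 0.06, -0.37, -0.75 and -0.68 by day. At day 25 its levels were 0.28, 0.62 and 0.69 in the controls and -0.50, -0.16 and 0.15 after 90Sr, without overlap, at -0.75 ± 0.18 (SE; adjusted p = 0.00225). None of the 6 irradiated arrays at each of days 7, 9, 25 and 30 had it well above background. Its changes at these days are therefore no measured size, and no fold is given.

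The other F13a1 probe lies 104.61 kb away on chromosome 13, had a mean level of 7.59 and was well above background on all 56 arrays. It was left out of the comparison because it varied by 1.5-fold on too few arrays. Taken by itself it changed by -0.06, 0.04, 0.11, -0.50 and 0.13, with the day 25 groups again separate, at 7.78 to 8.26 in the controls and 7.16 to 7.75 after 90Sr. The day 25 value was -0.50 ± 0.16 (SE; adjusted p = 0.0134 over all probes), and both probes were called at no day. The correlation of both probes over the 56 arrays, with group means subtracted, was 0.58. The sequence of the dim probe is given because its values differ from those of the bright one at days 9 and 30, and none of its letters is marked:
F13a1 probe at chr13:37063829-37063888 (mm9, minus strand): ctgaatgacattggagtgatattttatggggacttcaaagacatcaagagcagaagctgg

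F13a1 is also abundant in platelets, and 0 of the 3 platelet genes that passed both filters were called at any day. Of all genes, 23.1%, 16.1%, 17.9%, 26.5% and 21.3% were called lower by day. The shares called higher were 2.8%, 3.47%, 5.44%, 7.48% and 19.7%. The mean level of the 11 platelet genes that passed the detection filter ran from 7.89 to 9.45 in the control mice and from 7.82 to 9.50 in the irradiated mice. Their part in the F13a1 signal was not tested.

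Csf1r is a receptor whose signal supports the survival of monocytes and macrophages. Its 3 probes did not behave alike. The probe that passed both filters, with a mean level of 2.01, was called lower at days 4, 7, 9 and 25. At day 4 its levels were 2.43 to 2.90 in the 4 controls and 0.77 to 1.18 in the 4 irradiated mice, at -1.74 ± 0.17 (SE; adjusted p = 1.5e-04).

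At days 7, 9 and 25 the same probe changed by -1.07 ± 0.19, -1.14 ± 0.25 and -1.30 ± 0.24 (SE; adjusted p = 4.2e-04, 0.00145 and 4.2e-04). All irradiated mice were below all controls, with the highest irradiated levels at 1.80, 1.89 and 2.21 and the lowest control levels at 1.99, 2.08 and 2.70. At day 30 the groups overlapped, at 1.65 to 2.86 against 1.15 to 2.24, and the change of -0.62 ± 0.26 (SE; adjusted p = 0.0396) was not called. The difference between days in the effect had an adjusted p of 0.113. With normexp background correction this probe changed by -0.94, -0.52, -0.82 and -0.93 at days 4, 7, 9 and 25. It was called at none of these days.

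The other Csf1r probes, with mean levels of 8.87 and 4.10 and well above background on all 56 arrays, were called at no day. The first changed by 0.04, 0.55, -0.08, 0.22 and -0.06 and the second by 0.04, 0.17, -0.11, 0.03 and 0.42. The largest of these, 0.55 at day 7, had 4 of 6 irradiated mice above all controls (adjusted p = 0.0413 over all probes). The correlations between the 3 probes were 0.27, 0.31 and 0.10 over the 56 arrays with group means subtracted. Csf1r therefore counts as called lower in 4 days through 1 of its 3 probes, and with the probe of highest signal in its place 4, 3, 4, 3 and 3 members were called lower. Its neighbors on the chromosome are Pdgfrb and Hmgxb3. No sequence is given for Csf1r.

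**Figure D2:**
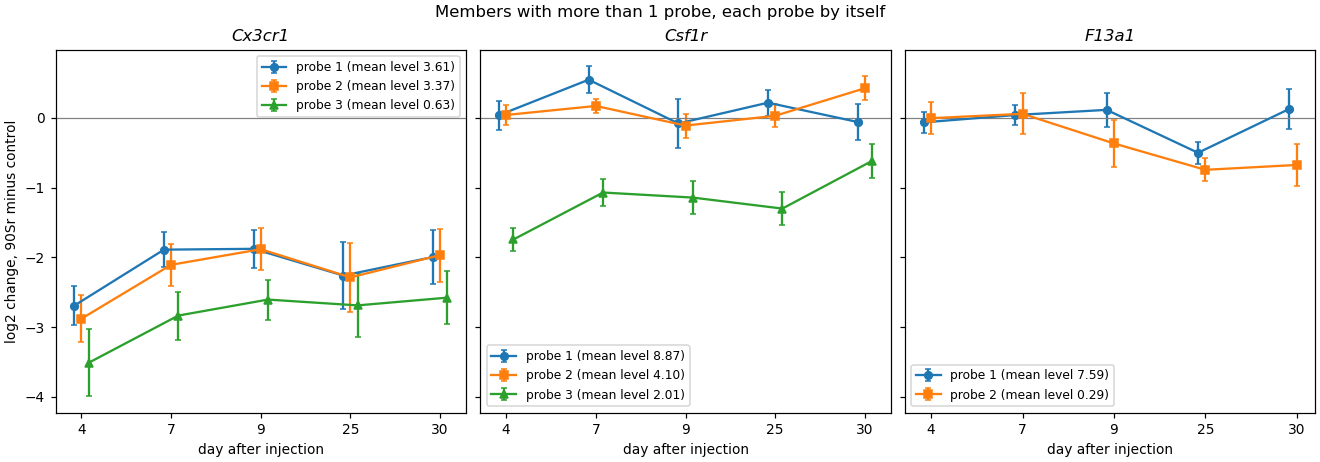
Change of each probe (vertical axis, log2 level in 90Sr mice minus control mice; error bars are the SE of the limma fit over all probes) by day after injection, for the 3 members with more than 1 probe. The 3 Cx3cr1 probes lie below 0 at every day, whereas 1 Csf1r probe lies below 0 and the other 2 lie near it. The dimmest Cx3cr1 probe was not well above background in the irradiated mice of days 4, 7, 9 and 30, so its points there are no measured size. The same holds for the dim F13a1 probe at days 7, 9, 25 and 30.

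Lyz2, the lysozyme of macrophages, monocytes and neutrophils, was called at no day in the main setting. At day 4 its levels were 7.21, 7.36, 7.36 and 6.12 in the controls and 6.87 to 7.16 after 90Sr, a change of -0.05 ± 0.27 (SE, n = 4 and 4). At days 7, 9 and 25 it was at 7.03 to 7.92, 6.87 to 7.46 and 6.82 to 7.39 in the controls and at 6.48 to 7.02, 5.54 to 6.72 and 5.71 to 6.65 after 90Sr. Each irradiated mouse was below each control mouse at these 3 days, by less than the 2-fold of the threshold on average.

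The Lyz2 changes at these days were -0.67 ± 0.17, -0.92 ± 0.22 and -0.83 ± 0.21 (SE; adjusted p = 0.00348, 0.00297 and 0.00310). At day 30 the change was 0.40 ± 0.36 (SE), and the level in the controls was itself low, at a mean of 6.00 against 7.01 to 7.41 at the other days (adjusted p of the difference between control days 9.8e-05). Lyz2 was the 1 member with a difference between days in the effect past an adjusted p of 0.05 (0.0149). With the slide as a random block that adjusted p was 0.112. With normexp background correction the Lyz2 changes at days 7, 9 and 25 were -1.03, -1.56 and -1.29 and were called lower. In the authors' processed values the day 9 change was -1.02 and was called lower.

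Lyz1, the neighboring lysozyme gene whose probe lies 5.687 kb away on chromosome 10, changed by -0.09, -0.52, -0.71, -0.59 and 0.00, and was not called. Whether each probe reads its own transcript alone was not tested. The Lyz2 probe is printed so that it can be set against both genes, with none of its letters marked:
Lyz2 probe at chr10:116719175-116719234 (mm9, minus strand): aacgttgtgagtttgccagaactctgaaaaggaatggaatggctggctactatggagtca

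Neutrophils also make Lyz2, and of the 13 neutrophil genes that passed both filters 3, 1, 0, 2 and 0 were called lower by day. Of all genes, 23.1%, 16.1%, 17.9%, 26.5% and 21.3% were called lower at these days. The median change of the neutrophil genes was -0.92, -0.44, -0.24, -0.83 and -0.43. Their part in the Lyz2 values was not tested.

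Cx3cr1, the receptor for fractalkine on the vessel wall, was called lower at all 5 days. At day 4 the level was 4.59, 4.45, 5.0 and 3.73 in the control mice and 2.05, 1.30, 1.70 and 1.95 in the irradiated mice. The groups did not overlap, and the change of -2.69 ± 0.28 (SE, n = 4 and 4; adjusted p = 1.5e-04) was 6.46-fold.

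At days 7, 9 and 25 the lowest, median and highest Cx3cr1 levels were 4.02, 4.35 and 4.69, then 3.84, 4.75 and 5.08, then 4.66, 5.21 and 5.84 in the controls. After 90Sr they were 1.55, 2.59 and 3.21, then 1.99, 2.84 and 3.24, then 1.36, 3.08 and 4.43, below all controls at each of the 3 days. At day 30 the levels were 2.96, 4.80 and 5.81 against 1.97, 2.74 and 3.29, and 4 of the 6 irradiated mice were below all controls. The lowest control of day 30 was replicate 4, which also had the lowest Ccr2, Nr4a1 and Fn1 level of its group.

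The Cx3cr1 changes from day 7 on were -1.89 ± 0.25, -1.88 ± 0.28, -2.26 ± 0.46 and -1.99 ± 0.39 (SE), or 3.70-, 3.67-, 4.79- and 3.99-fold. The adjusted p-values from limma were 1.5e-04, 1.4e-04, 6.9e-04 and 4.0e-04. With the slide as a block Cx3cr1 was called at day 7 but not at days 9, 25 and 30 (adjusted p = 0.0173, 0.301 and 0.124), and the day 25 change was -0.97. With scan day as a block it was not called at day 30, at -1.46 (adjusted p = 0.0417). The difference between days in the effect was not detectable (adjusted p = 0.763).

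A further Cx3cr1 probe, which shares 55 of its 60 bases with the first, changed by -2.88, -2.11, -1.88, -2.29 and -1.97. The remaining probe, outside that stretch, was not well above background in any irradiated mouse at days 4, 7, 9 and 30, where the signal was at least 4.27-, 2.44-, 2.70- and 2.18-fold lower. At day 25, when 2 of the 6 irradiated arrays had it well above background, it changed by -2.69. All 3 probes were called lower at all 5 days.

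Nr4a1, the transcription factor on which patrolling monocytes depend, was called lower at days 4, 7, 9 and 25. At day 4 its level was 5.76, 5.74, 5.96 and 4.80 in the controls and 4.17, 3.77, 3.95 and 4.08 after 90Sr. At days 7, 9 and 25 the controls ran from 5.23 to 5.84, from 5.12 to 6.39 and from 5.70 to 6.32, and the irradiated mice from 3.66 to 4.61, from 3.73 to 4.76 and from 3.79 to 5.50. All irradiated mice were below all controls at these 4 days.

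The Nr4a1 changes were -1.57 ± 0.25, -1.21 ± 0.18, -1.35 ± 0.25 and -1.36 ± 0.27 (SE; adjusted p = 6.1e-04, 1.8e-04, 5.4e-04 and 5.9e-04), between 2.31- and 2.97-fold. At day 30 the levels were 4.40, 5.55 and 6.73 in the controls and 4.24, 4.69 and 4.90 after 90Sr. The change of -0.91 ± 0.30 (SE; adjusted p = 0.0131) was not called. Without control replicate 4, the control at 4.40, it was -1.14 and was called. In the authors' processed values the day 30 change was -1.21 and was called lower. With the 75th percentile the changes at days 7, 9 and 25 were -0.86, -0.96 and -0.88 and were not called. After quantile normalization Nr4a1 was not called at days 7 and 25. With the slide as a block it was not called at days 7, 9 and 25 (limma, adjusted p = 0.0124, 0.0224 and 0.226).

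Treml4, a receptor of the triggering receptor family found on patrolling monocytes, was called at no day. Its probe was dim, at a mean level of 0.75, and well above background on 40 of 56 arrays. The changes were -0.44 ± 0.18, -0.98 ± 0.49, -0.39 ± 0.24, -0.16 ± 0.30 and 0.06 ± 0.31 (SE; adjusted p = 0.0622, 0.0917, 0.184, 0.630 and 0.879). The groups overlapped at each day. At day 7 control replicate 2 stood at 3.58 against a median of 0.68, and without it the change was -0.46. At that day it was well above background on 5 of 6 control arrays and on 1 of 6 irradiated arrays.

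**Figure D3:**
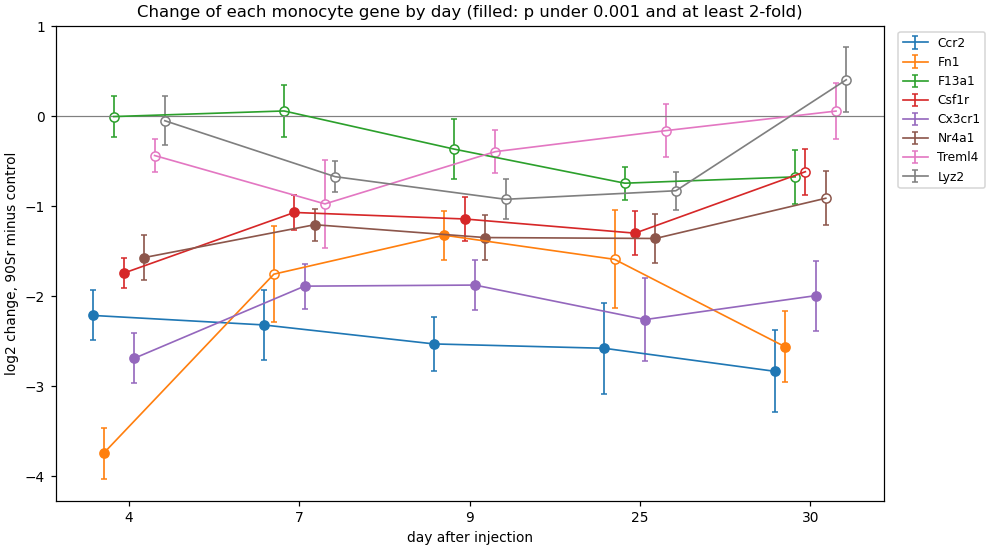
Change of each of the 8 genes (vertical axis, log2 level in 90Sr mice minus control mice; error bars are the SE from limma) by day after injection, shown as equally spaced categories. Filled points are called; Ccr2 and Cx3cr1 are filled at all 5 days, Nr4a1 and Csf1r at 4, Fn1 at 3, and F13a1, Lyz2 and Treml4 at none.

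The promoters of Ccr2, Cx3cr1 and Nr4a1, the members called lower at 4 or 5 days on every probe they have, are printed to show what these genes carry upstream. Each is the run of 250 bases just before the annotated start (RefSeq, GRCm38.p6), 5′ to 3′ along the gene. Capitals mark matches, on either strand, to GAGGAA (letters bound by the myeloid factor Spi1), TTNNGNAA (C/EBP factors) and TGACG (the CREB and ATF core).
Ccr2, chr9:124101933-124102182, plus strand: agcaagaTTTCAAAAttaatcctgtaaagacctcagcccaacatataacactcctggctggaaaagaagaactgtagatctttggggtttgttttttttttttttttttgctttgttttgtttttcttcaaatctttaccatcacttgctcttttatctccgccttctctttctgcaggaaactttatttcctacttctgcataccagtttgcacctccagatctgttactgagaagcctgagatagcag
Cx3cr1, chr9:120068297-120068546, minus strand: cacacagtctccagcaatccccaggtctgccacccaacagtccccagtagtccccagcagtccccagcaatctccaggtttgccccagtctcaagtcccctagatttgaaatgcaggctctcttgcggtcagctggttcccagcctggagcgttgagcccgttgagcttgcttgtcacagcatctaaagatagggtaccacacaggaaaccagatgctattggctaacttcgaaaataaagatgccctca
Nr4a1, chr15:101266596-101266845, plus strand: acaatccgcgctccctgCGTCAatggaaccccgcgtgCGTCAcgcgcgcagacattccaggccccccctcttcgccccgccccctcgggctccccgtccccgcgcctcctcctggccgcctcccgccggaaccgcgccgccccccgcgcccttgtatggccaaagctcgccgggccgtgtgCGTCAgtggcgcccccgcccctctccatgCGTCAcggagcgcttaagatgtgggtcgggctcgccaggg

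Ccr2 held 1 match to TTNNGNAA, 243 bases before the start. Nr4a1 held 4 matches to TGACG, at 233, 213, 69 and 40 bases before the start, and Cx3cr1 held no match to the 3 motifs. Of 32851 promoters of the same length, 23.25% held GAGGAA, 36.85% held TTNNGNAA and 17.77% held TGACG. A match here is a match of letters only.

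Whether classical and patrolling genes moved by the same amount was asked of the ratio of Ccr2 to Cx3cr1 within each array, which does not change with a constant scaling of that array. The ratio (log2 Ccr2 minus log2 Cx3cr1 signal) differed between irradiated and control mice by 0.48 at day 4 and by -0.43, -0.65, -0.32 and -0.84 at days 7, 9, 25 and 30. At day 4 it lay between -0.77 and -0.46 in the 4 controls and between -0.35 and 0.07 in the 4 irradiated mice, so that all irradiated mice were higher. At the later days the irradiated mean was lower and the groups overlapped.

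The two-sided exact permutation tests gave p = 0.0286, 0.0887, 0.00866, 0.180 and 0.00866, or 0.0952, 0.148, 0.0433, 0.225 and 0.0433 after Benjamini-Hochberg adjustment over 10 such tests. The day 4 value is the smallest that 4 against 4 mice allow, and 0.00216 is the smallest for 6 against 6. Days 9 and 30, at -0.65 and -0.84, thus passed an adjusted p of 0.05, with means of -1.18 ± 0.53 against -0.53 ± 0.17 and -1.37 ± 0.35 against -0.53 ± 0.47 (SD, n = 6 and 6). With normexp background correction these differences were 0.05 and -0.12, so that neither was kept, and the sign at day 9 turned. Nor was either kept after quantile normalization (adjusted p = 0.0758 at both days), with the mean of a gene's probes (0.152 and 0.144) or in the sign-flip test of mice of the same number (0.156 at both). Leaving out 1 array at a time ended the call in 10 of 12 cases at each of the 2 days, with adjusted p up to 0.0952. Ccr2 was well above background on 4 and 3 of the 6 irradiated arrays of these days.

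The same ratio of F13a1 to Treml4, both dim probes, differed by 0.43, 1.03, 0.03, -0.58 and -0.73. No difference passed an adjusted p of 0.05 in the exact permutation tests (0.254, 0.148, 0.924, 0.148 and 0.108), and the unadjusted p of 0.0433 at day 30 was the lowest.

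**Figure D4:**
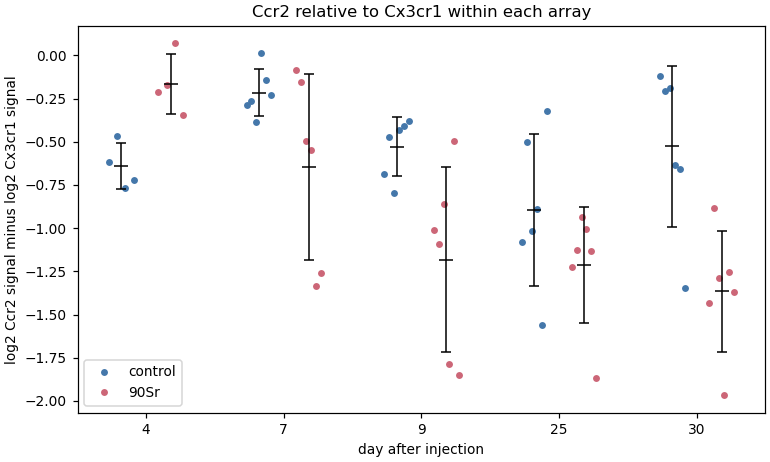
Log2 Ccr2 signal minus log2 Cx3cr1 signal within each array (vertical axis), by day after injection (horizontal axis, equally spaced categories), for control mice in blue and 90Sr mice in red; cross bars are means and error bars 1 SD. The irradiated mean is above the control mean at day 4 (difference 0.48) and below it at the 4 later days.

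Across the 56 arrays, with each group's mean subtracted so that differences between groups drop out, Ccr2 and Cx3cr1 varied together (r = 0.89), as did Cx3cr1 and Nr4a1 (r = 0.88) and Ccr2 and Nr4a1 (r = 0.78). Fn1 followed Ccr2 at r = 0.60. Treml4 followed the other members at r between -0.04 and 0.36. These values describe arrays that share a scaling and slides, and carry no test.

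Among 18563 genes, those most like Ccr2 by this measure were Clec4a3 (r = 0.92), S100a4 (0.90) and Ppfia4 (0.90). Those most like Cx3cr1 were P2ry6 (0.94), Arhgef10l (0.93) and Plac8 (0.92), and those most like Nr4a1 were Arhgef10l (0.91), Cyth4 (0.89) and Plac8 (0.89). For Fn1 they included Cfp (0.85) and Emr1 (0.78), the latter the gene of the macrophage protein F4/80. Csf1r came nearest to Itgax, Klrb1c and Myo1f (0.79, 0.77 and 0.77), and Lyz2 to Iah1, NAP061234-1 and Tmem123 (0.84, 0.81 and 0.81). F13a1 came nearest to Fyb, Ttyh3 and Atp6v0a2 (0.73, 0.73 and 0.72), and Treml4 to Hira, Nrm and Uchl3 (0.66, 0.65 and 0.59).

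Control and irradiated arrays of day 4 were on different slides, and slide and treatment cannot be told apart there. From day 7 on, 1 slide per day carried 2 arrays of either kind. On these shared slides Ccr2 differed by -2.51, -2.71, -1.21 and -1.81 at days 7, 9, 25 and 30. Cx3cr1 differed by -2.11, -2.06, -0.97 and -1.65, Nr4a1 by -1.22, -1.62, -0.90 and -0.70, and Fn1 by -1.32, -1.18, -1.96 and -1.81. The means of all 4 genes were lower in the irradiated mice on each of the 4 slides. The Fn1 value of day 25 rests on control replicate 5, at 8.30: the other control, at 4.58, lay between the irradiated mice, at 4.19 and 4.77, and without replicate 5 the difference was -0.097. Without the same mouse the Cx3cr1 difference of day 25 was -0.38. The Fn1 value of day 7 rests on irradiated replicate 6, at 0.69, without which the difference was 0.76. The values within slides were chosen after seeing the data. Both irradiated mice were below both controls for 3, 4, 3 and 4 of the 4 genes.

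With the slide as a block, 1, 1, 0 and 0 members were called at days 7, 9, 25 and 30. The changes in that fit are the differences within the shared slides given above, between 2 and 2 mice. The other arrays of a day add only to its estimate of spread. Of all 14580 genes, 1632, 680, 49 and 215 were called lower in that fit. The Ccr2 adjusted p-values were then 0.0186, 0.0103, 0.286 and 0.134, and those of Cx3cr1 0.00603, 0.0173, 0.301 and 0.124. With the slide as a random block, 4, 5, 4 and 3 members and 2346, 2325, 3019 and 2809 of all genes were called lower. At days 7 and 30, 4 of the irradiated arrays were scanned on another day than the rest, and with scan day as a block 4 and 0 members were called. Of all genes, 2946 and 831 were then called lower. Ccr2 changed by -2.62 and -2.09 in that fit (adjusted p = 0.00231 and 0.0208).

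Wider lists of monocyte genes were counted in the same way. For each list, the shares of all genes called lower were 23.1%, 16.1%, 17.9%, 26.5% and 21.3% by day. Of 15 classical monocyte genes that passed both filters 8, 6, 8, 5 and 6 were called lower by day, with median changes of -1.22, -1.08, -1.17, -1.12 and -1.02. Plac8 and S100a4 had the lowest mean changes over the 5 days, at -2.08, -1.86, -2.09, -1.91 and -2.03 for Plac8 and at -1.52, -1.36, -1.88, -1.55 and -2.09 for the calcium-binding protein S100a4, which was not called at days 4 and 25. In the same list 2 genes were called higher at day 30, the matrix proteoglycan Vcan at 2.66 ± 0.41 (SE) and Thbs1 at 1.07. In the main setting 19.7% of all genes were called higher at that day, a share that depends on the processing. Cd14, a lipopolysaccharide receptor, was at 0.75, 0.81, 0.67, 1.04 and 0.23 and was not called.

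Of 14 patrolling monocyte genes 7, 4, 5, 6 and 4 were called lower, with medians of -1.20, -0.66, -0.69, -1.05 and -0.66. The day 30 count is near the share of all genes, 21.3%. Pou2f2 was at -1.84, -1.55, -1.68, -1.88 and -2.04 and Gngt2 at -1.70, -1.24, -1.56, -1.55 and -1.72, and both were called at all 5 days. At the other end of the list, the integrin chain Itgal was called at no day and the scavenger receptor Cd36 was called higher at day 30, at 1.55 ± 0.19 (SE). So were 19.7% of all genes at that day.

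Of 16 genes common to mononuclear phagocytes 9, 10, 9, 11 and 5 were called lower, with medians of -1.37, -1.10, -1.05, -1.27 and -0.80. Cybb, the membrane chain of the phagocyte oxidase, was at -2.35, -1.93, -1.67, -1.71 and -2.19, and the costimulatory ligand Cd86 at -1.98, -1.65, -2.05, -2.21 and -2.10. Lst1 was called at no day. Itgam, the integrin chain that neutrophils share with monocytes, was called higher at day 30, at 1.55 ± 0.32 (SE), as were 19.7% of all genes.

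Of 8 transcription regulators of the lineage 5, 4, 4, 5 and 4 were called lower, with medians of -1.43, -1.13, -1.14, -1.28 and -1.33. Irf5 was at -2.01, -1.97, -1.93, -2.04 and -2.07 and Egr1 at -2.05, -2.20, -1.77, -1.73 and -1.54, called at all 5 days. Zeb2 and Runx1 were called at no day.

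Of 8 ligands and partners of the members 1, 1, 2, 1 and 1 were called lower, near the shares of all genes or below them. Csf1, the ligand of Csf1r, was at 0.15, 0.72, -0.06 and 0.95 and was called higher at day 30, at 2.16 ± 0.37 (SE; adjusted p = 2.8e-04). Of all genes, 19.7% were called higher at that day. Il34, the other ligand, was at 0.66, -0.00, 1.11, 0.30 and 0.79 and was not called. Itga4, a chain of a fibronectin-binding integrin, was called lower at days 4, 7, 25 and 30 (-1.78, -1.05, -1.21 and -1.22). Nr4a2, of the family of Nr4a1, was at 0.62, 0.66, 0.94, -0.07 and 0.77 and was not called. Ccl2, Ccl7, Ccl12 and Cx3cl1, the ligands of Ccr2 and Cx3cr1, did not pass the detection filter.

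Markers of other blood cells were counted in the same mice, in which 23.1%, 16.1%, 17.9%, 26.5% and 21.3% of all genes were called lower by day. Of 11 B cell genes 10, 10, 9, 10 and 10 were called lower, with medians of -2.19, -1.77, -2.08, -2.37 and -2.31. Pou2f2, Irf8 and Cd86 of the lists above are also expressed by B cells, and the other genes of those lists were not examined for this. The mean level of the 12 B cell genes ran from 4.33 to 5.32 in the control mice and from 2.36 to 4.24 in the irradiated mice. Their part in the changes of the monocyte lists was not tested.

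Of 11 T cell genes 3, 1, 1, 3 and 2 were called lower, of 9 natural killer cell genes 0, 1, 1, 0 and 0, and of 7 dendritic cell genes 1, 3, 3, 4 and 4. The T cell counts are near those shares of all genes or below them, and the natural killer cell counts are below them. Of 8 erythroid genes none was called lower and 0, 1, 5, 0 and 5 were called higher. Among all genes 2.8%, 3.47%, 5.44%, 7.48% and 19.7% were called higher at these days. The mean level of the 12 erythroid genes ran from 8.50 to 9.71 in the control mice of all days and from 9.35 to 10.4 in the irradiated mice. At days 4, 7, 9 and 30 every irradiated mouse was above every control mouse. The lowest irradiated levels were 9.77, 9.89, 9.35 and 9.90, against highest control levels of 9.52, 9.71, 9.24 and 9.50. At day 25 the groups overlapped. No share of all genes was counted for the separation at the other days. The listed platelet and erythroid genes, which mark the labeled tissue as whole blood, all passed the detection filter.

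**Figure D5:**
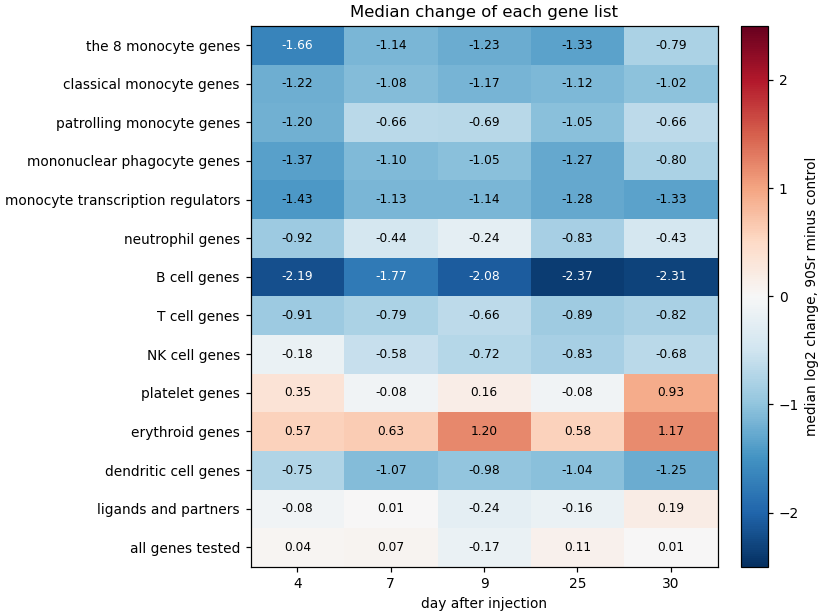
Median log2 change (90Sr mice minus control mice, colour scale and printed values) of the genes of each list that passed both filters, by day after injection, with all genes tested in the lowest row. The 8 monocyte genes lie between -1.66 and -0.79, the B cell genes between -2.37 and -1.77, and the erythroid genes above 0.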

How the data were processed

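Blood RNA of 56 mice was measured on one-color (Cy3) Agilent mouse arrays after reduction of globin transcripts. The authors deposited for each spot an intensity (the linear processed signal), background-corrected by Feature Extraction (version 11.5.1.1 in the file header, 10.7 in the submitters' processing notes) and not scaled between arrays. The log2 values that the authors processed and deposited, scaled on a reference array, served as an alternative. In the main setting control spots were dropped, spots of a probe were averaged as log2 values, and the median of the 43020 non-control spots was subtracted per array.

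A probe was kept if fewer than 25% of arrays marked it non-uniform or not above background, and if at least 20% of arrays lay 1.5-fold or more from its median. A gene was represented by its remaining probe of highest mean. Control and irradiated mice of a day were compared with limma 3.58.1 in R 4.3.3 (lmFit and eBayes, 1 fit per day), after the methods' comparison of each day at p under 0.001 and 2-fold. For differences between days, the 10 groups were fitted together and tested with an F test of limma. Values for lists are from the fit without the filter on variation, and counts and medians from the fit with it. Within-array ratios were tested by exact permutation of the group labels, two-sided. The fit was tested on simulated data.

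The named genes are all members and their probes, the 2 highest and 2 lowest genes by mean change of each monocyte list, ligands of the receptors and Lyz1, and for each member the 3 genes of highest correlation. Thbs1 and Irf8 were named after their values were seen. A few genes that this rule names are not reported here. The members and lists were chosen with earlier results of these data known. Gene lists cover classical and patrolling monocytes, mononuclear phagocytes, transcription regulators, ligands and partners, neutrophils, B, T and natural killer cells, platelets, erythroid and dendritic cells. All 8 members matched a RefSeq accession; probe positions are on mm9 as in the files. Other scalings, background correction, filters, probe rules, blocks and arrays left out were run as alternatives.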

Additional observations from a re-analysis of the deposited data

Results flagged for a closer look

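In 5 of the 80 groups of member values examined, 1 mouse lay far from the others by Dixon's test, where chance flags about 1 in 20 groups. They were control replicate 5 of day 25 for Fn1 (8.30, nearest 5.58), irradiated replicate 4 of day 30 for F13a1 (-1.47, nearest -0.19) and control replicate 4 of day 4 for Lyz2 (6.12, nearest 7.21). The others were both in Treml4, for control replicate 2 of day 7 (3.58, nearest 0.76) and irradiated replicate 2 of day 25 (2.09, nearest 0.94).

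The effect of 90Sr on Lyz2 differed between days in the test of that difference (limma, adjusted p = 0.0149), from -0.92 at day 9 to 0.40 at day 30. The day 30 controls were lower than those of the other days.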

How the results depend on the processing

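Ccr2, Cx3cr1, Fn1 and Nr4a1 were below 0 in all 116 values each under the alternatives, from -3.19 to -1.21, -3.03 to -0.97, -3.96 to -0.93 and -1.83 to -0.68. These 4 genes were picked because they fell, and the alternatives refit the same arrays, so the tally is no independent support. Of 470 member changes under settings other than arrays left out, 399 kept direction and call, 41 lost the call, 7 gained it and 23 changed sign. Signals near background limit F13a1 and Treml4 most, and Ccr2 in the irradiated mice from day 7 on, and slides shared by both groups hold 2 arrays of each. The causes of the changes below were not tested.

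Members called fell to 2, 2 and 1 at days 7, 9 and 25 with the 75th percentile, to 2, 3 and 0 with quantile normalization, to 1, 1, 0 and 0 with the slide as a block (days 7 to 30), and to 0 at day 30 with scan day as a block. Over all genes tested, those called lower at day 25 fell from 3867 to 1086, 1474 and 49 with both scalings and the slide block. At day 30 they fell from 3105 to 831 with scan day as a block. Members with an effect that differed between days, 1 in the main setting, numbered 2 with the 75th percentile, 2 with normexp and 0 with the slide as a random block. Members that differed between control days numbered 3, and 1 with that block.

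Changes of sign were these. Without the filter on variation, or without any filter, Csf1r was at 0.038, 0.55 and 0.22 at days 4, 7 and 25 and F13a1 at 0.11 and 0.13 at days 9 and 30. With the 75th percentile, day 4 values were 0.47 for F13a1, 0.43 for Lyz2 and 0.041 for Treml4, with F13a1 at 0.026 at day 9 and Treml4 at 0.32 at day 25. With quantile normalization, F13a1 was at 0.22 at day 4 and Treml4 at 0.086 at day 25. At day 30 Treml4 was at -0.24 in the authors' values, and Lyz2 at -0.15 and Treml4 at -0.016 with normexp. With the slide as a block, F13a1 was at -0.32 at day 7 and Treml4 at 0.30 and -0.056 at days 25 and 30.

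For Ccr2 minus Cx3cr1, quantile normalization gave -0.68 and -0.83 at days 9 and 30, normexp 0.048, 0.23 and -0.12 at days 9, 25 and 30, and the mean of a gene's probes -0.41 and -0.66 at days 9 and 30. For F13a1 minus Treml4, quantile normalization gave -0.15 at day 9, normexp 0.035 at day 25 and the bright F13a1 probe, an alternative added after seeing the data, 0.073 at day 30.

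Deviations of mice of the same replicate number correlated at 0.080 to 0.31 at day 4, where 3 of 4 pairs were over 0.1 and each mouse correlated best with its own number, at 0.011 to 0.33 at day 30 (3 of 6 over 0.1) and at -0.28 to 0.058 at day 9. At no day was every pair over 0.1, so the numbers were not taken as pairs. With the replicate block 39 of 40 member changes kept direction and call, Csf1r lost its call at day 9, and the Ccr2 minus Cx3cr1 differences of -0.65 and -0.84 at days 9 and 30 had an adjusted p of 0.156 in exact sign-flip tests.

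With 1 array left out at a time, Ccr2 minus Cx3cr1 ranged from -0.79 to -0.52 at day 9 and from -1.01 to -0.72 at day 30, with the call lost in 10 of 12 cases at each day, and F13a1 minus Treml4 from -0.11 to 0.35 at day 9 and from -0.89 to -0.53 at day 30. F13a1 ranged from -0.15 to 0.17 and from -0.084 to 0.26 at days 4 and 7, Lyz2 from -0.35 to 0.066 at day 4 and Treml4 from -0.20 to 0.21 at day 30. Calls were gained for Fn1 at day 7 (-2.24 without irradiated replicate 1), Lyz2 at day 9 (-1.04 without irradiated replicate 2) and Nr4a1 at day 30 (-1.14 without control replicate 4), and lost for Csf1r at day 7 (-0.96 without irradiated replicate 4).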
